A study of Homo sapiens with 60 samples.

Results

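The comparison was between the high (290 µg/mL) and the medium (58 µg/mL) dose of a water extract of Coptidis Rhizoma in HT29, an established human colorectal adenocarcinoma line. It rests on 6 of the 60 libraries of the series, 3 at each dose, chosen by their labels. All cells were collected after 24 h. The low dose of the same extract (11.6 µg/mL, 3 libraries) served to divide changes by step. The step from low to medium is called the first step and that from medium to high the second step. A response already complete at the low dose appears in neither step. In bulk RNA a lower level of a transcript in each cell and fewer cells that hold it cannot be told apart. Each dose was 5 times the one below it, and the labels give the high dose as the one that inhibited the cells by 20% (IC20). The same step was also read in Scutellariae Radix and in Zizyphi Fructus, water extracts whose high and medium doses were 500 and 100 µg/mL (3 libraries each). The remaining libraries entered the fit only for its estimate of spread. Among them is a DMSO vehicle, which stands as 0.1% beside the samples and as 2% in the text on the series. No source used here says if DMSO was also added with an extract. Nothing in the labels ties the 3 libraries of a dose to separate cultures, so p-values reflect a spread between libraries that could be technical.

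High-dose libraries held 21.4 to 28.4 M counts, medium-dose libraries 17.4 to 27.8 M and low-dose libraries 25.7 to 33.6 M (M, 1e6). Values are counts per 1e6 counts (CPM), which are not scaled to gene length, so levels are compared between libraries and not between genes. A value after ± on a CPM is a standard deviation of 3 libraries, and one after ± on a log2 difference is a standard error. Differences are high minus medium unless another pair is named. Adjusted p-values are those of edgeR's quasi-likelihood test with Benjamini-Hochberg adjustment over 16609 genes, and a gene was called below 0.05. All 13 colon epithelial markers were found, with summed levels of 11100 to 11900 CPM at the high and 11100 to 11900 CPM at the medium dose, although 7 of them were called lower and 2 higher at the high dose. Summed markers of fibroblasts, endothelial, enteroendocrine and tuft cells stayed at or below 4.6 CPM in every library of both doses. Of 10 leukocyte markers, PTPRC, MS4A1 and CD3E were at 0 counts in all 6 libraries, and 4 had enough counts to be tested. The leukocyte and Paneth cell sums (1500 to 1640 CPM) came with LYZ, which both lists hold.

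Coptidis Rhizoma is the rhizome of goldthread plants and is rich in berberine and related isoquinoline alkaloids. Berberine is a lipophilic cation that gathers in mitochondria, where it is known to inhibit the respiratory chain. Cells that sense mitochondrial or amino acid stress start the integrated stress response, in which phosphorylated eIF2α favours translation of the transcription factor ATF4. Other stress routes lead to NRF2, a regulator of antioxidant genes, and to the aryl hydrocarbon receptor (AhR), which planar ring compounds can activate.

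The second step changed far more genes than the first. Between high and medium, 7730 of 16609 genes were called: 4046 higher (24.4%) and 3684 lower (22.2%) at the high dose. Of these, 581 were at least 2-fold higher and 467 at least 2-fold lower. Counts for the gene lists below read against the 24.4% higher and 22.2% lower over all genes. Between medium and low, 158 were higher (0.951%) and 59 lower (0.355%) at the medium dose. First-step counts for the gene lists read against these smaller shares. At such shares a short list can have no call at the first step without differing from all genes. Tested directly as the second step minus the first, the difference was positive for 1701 genes (10.2%) and negative for 1686 (10.2%). The median log2 difference over all genes was -0.0005 for the second and 0.0015 for the first step.

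A gene was taken to start at the top dose when it changed at least 2-fold between high and medium, its second step differed from its first, and its first step was not called and had a 95% interval within ±0.5 on the log2 scale. By this rule 268 genes started there, 136 higher (0.819% of all tested) and 132 lower (0.795%). The rule bounds the first step and does not exclude a small one: that of HMOX1 had an interval of 0.11 to 0.44. A start is judged from the low dose upwards, and a change below the low dose was not tested. SERTAD1 (log2 1.0004) lay just inside the limit on size and TMEM97 (-0.9964) just outside it. Of the 1048 genes with at least a 2-fold called change, 753 had a first-step interval that reached beyond ±0.5. In these the first step was either large or too poorly measured to place them. Of the same 1048 genes, 94 had been called in the same direction at the first step already, and these counts overlap. A gene was taken to reverse when both steps were called with opposite signs and all 3 medium libraries lay above or below the other 6 libraries. Both steps use the medium libraries, so errors in those libraries push the steps in opposite directions and widen their difference. There were 9 genes called with opposite signs, and 8 of them met the rule (0.0482% of all tested). The plot of both steps sets these groups out.

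**Figure D1:**
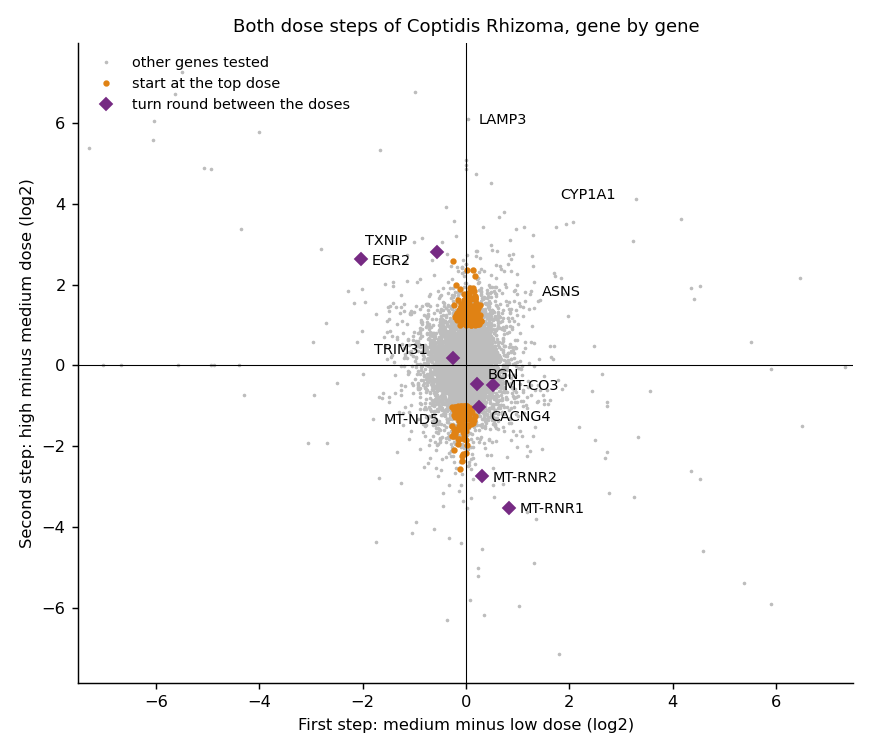
Each point is a gene, placed by its log2 difference between medium and low dose (x axis) and between high and medium dose (y axis), for all 16609 genes tested. The 268 genes that start at the top dose (orange) lie close to 0 on the x axis by the rule that chose them. The 8 genes that reverse (purple) lie in the upper left and the lower right of the plot, with MT-RNR1 lowest and TXNIP highest among them.

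The 2 ribosomal RNAs of the mitochondrion had the deepest second-step falls among the 8 genes that reversed. MT-RNR1 and MT-RNR2, the RNAs of the small and the large mitochondrial ribosomal subunit, are transcribed from the heavy strand of mitochondrial DNA ahead of most mitochondrial messenger RNAs. MT-RNR1 (ENSG00000211459, chromosome M: 648-1601) had 16130, 16779 and 15796 CPM in the low-dose libraries, 29137, 29806 and 27864 CPM in the medium-dose libraries and 2648, 2498 and 2427 CPM in the high-dose libraries. The 3 doses did not overlap, with medium highest and high lowest. MT-RNR1 fell 11.5-fold at the second step (log2 -3.52 ± 0.081, adjusted p = 6.92e-35) after it had risen by 0.83 ± 0.081 at the first (adjusted p = 1.23e-10). MT-RNR2 had 62014, 61968 and 59290 CPM at the low dose, 78548, 78298 and 70699 CPM at the medium dose and 11881, 11224 and 10841 CPM at the high dose. Its second step was -2.74 ± 0.075 (adjusted p = 2e-32) and its first 0.31 ± 0.075 (adjusted p = 0.0151). The reversal of MT-RNR2 was lost without medium replicate 1, medium replicate 2 or low replicate 3, while that of MT-RNR1 was kept in all 16 alternatives. High minus low, which does not use the medium libraries, was -2.69 ± 0.081 for MT-RNR1 and -2.43 ± 0.075 for MT-RNR2.

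The low and medium doses stood furthest from the rest of the series in these RNAs. Both together made up 9.52 to 10.3% of the counts at the medium dose and 7.37 to 7.64% at the low dose, against 1.37 to 1.51% at the high dose. In the 51 libraries outside Coptidis Rhizoma the share was 1.02 to 1.4%. The group means of MT-RNR1 outside Coptidis Rhizoma ran from 1139 to 1504 CPM. The high-dose mean of 2524 CPM lay above all of these, and the medium-dose mean of 28936 CPM much further above. For MT-RNR2 the high-dose mean of 11315 CPM lay within the range of those groups, 9345 to 11947 CPM. The labels describe a library of messenger RNA and name no poly(A) selection, so a change in the amount of these RNAs and a change in how they were captured cannot be told apart.

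Mitochondrial messenger RNAs followed mixed courses. Of the 15 mitochondrially encoded RNAs tested, 12 were lower at the high than at the medium dose, none was higher, and the median log2 difference was -0.68. At the first step 3 were higher (both ribosomal RNAs and MT-CO3) and 5 lower. The share of counts from the 13 messenger RNAs was 2.36 to 2.48% at the high and 3.39% in each library at the medium dose, after 4.41 to 4.53% at the low dose and 6.6 to 10.6% outside Coptidis Rhizoma. MT-ND5, a subunit of complex I, had 692, 730.1 and 651 CPM in the high-dose libraries, against 1773, 1730 and 1648 CPM in the medium-dose libraries, and 6352, 5825 and 5731 CPM at the low dose. It fell at both steps, by 1.8 at the first and 1.31 at the second (log2, adjusted p = 1.35e-14 and 3.41e-12). MT-ND1 and MT-ND2, of the same complex, also fell at both steps, with second steps of -0.73 ± 0.16 and -0.68 ± 0.11 (adjusted p = 0.00019 and 1.91e-06). MT-CO3, a subunit of cytochrome c oxidase, instead reversed: it had 4205, 4380 and 4088 CPM at the low, 6041, 5870 and 6232 CPM at the medium and 4382, 4260 and 4321 CPM at the high dose. Its low and high doses overlapped, and its second step was -0.48 ± 0.11 (adjusted p = 0.000403). MT-CO1, of the same enzyme, fell at the second step (log2 -0.65 ± 0.083, adjusted p = 4.73e-09). MT-ND4L, MT-ATP6 and MT-ND4 had positive first steps that were not called (0.74, 0.52 and 0.35, adjusted p = 0.0643, 0.101 and 0.328). They fell at the second step (-1.63, -0.58 and -0.50, adjusted p = 2.58e-08, 0.00205 and 0.00231), MT-ND4L by the most of the messenger RNAs. Their second steps differed from their first (adjusted p = 1.41e-06, 0.00183 and 0.00609). MT-ATP8 had the same signs, but neither step was called. Nuclear copies of mitochondrial genes can share their reads: the pseudogene MTATP6P1 averaged 295 ± 12.2 CPM at the high and 496 ± 39.2 CPM at the medium dose, so values of single mitochondrial messenger RNAs are uncertain to that extent.

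Of 38 nuclear respiratory chain subunits 1 was called higher and 6 lower (median -0.073), of 37 mitochondrial ribosomal proteins 2 higher and 10 lower (median -0.064), and of 31 genes that control mitochondrial DNA and RNA 2 higher and 7 lower (median -0.032). Set against 22.2% of all genes, 15.8% of the respiratory chain list, 27% of the ribosomal protein list and 22.6% of the control list were lower. SDHA, the flavoprotein subunit of complex II, had 167, 167 and 166 CPM in the high-dose libraries, against 256, 263 and 247 CPM in the medium-dose libraries (log2 -0.62 ± 0.048, adjusted p = 1.18e-15). POLG, the mitochondrial DNA polymerase, fell by 0.68 ± 0.051 (adjusted p = 4.92e-16), and PPARGC1B, a coactivator of mitochondrial genes, by 0.96 ± 0.12 (adjusted p = 8.99e-10). SUPV3L1, the helicase of the mitochondrial RNA degradosome, was higher (log2 0.25 ± 0.048, adjusted p = 2.21e-05). A fit of the 9 Coptidis Rhizoma libraries alone called 13 of the respiratory chain subunits lower and 4 higher, 16 of the mitochondrial ribosomal proteins lower and 2 higher, and 9 of the control genes lower and 4 higher. Without the filter on low counts 13 respiratory chain subunits were lower and 3 higher.

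TXNIP reversed in the other direction, as the plot of the reversing genes shows. TXNIP (ENSG00000265972, chromosome 1: 145992435-145996600) encodes an arrestin that binds thioredoxin and curbs glucose uptake, and its transcription follows glucose metabolites. It had 32.5, 33.3 and 31.2 CPM at the low, 22.9, 21.5 and 21.7 CPM at the medium and 155, 152 and 156 CPM at the high dose. All medium libraries lay below all low libraries, and all high libraries above both. Its first step was -0.55 ± 0.064 (adjusted p = 1.11e-08) and its second 2.81 ± 0.061 (adjusted p = 3.95e-37), a 6.99-fold rise that held in all 16 alternatives. ARRDC4, a related arrestin with a like control, had 6.49, 5.58 and 4.76 CPM at the low, 4.31, 4.65 and 5.41 CPM at the medium and 30.5, 27.8 and 27.6 CPM at the high dose. Its first step was not called (-0.25 ± 0.12, adjusted p = 0.537), so with a second step of 2.59 ± 0.11 (adjusted p = 1.51e-26) it counts among the genes that start at the top dose. Promoter windows of RefSeq run from 250 bases before to 50 after a gene start, and both strands were searched. An E-box, CACGTG, which such glucose sensors are known to bind, was in the windows of ARRDC4, KLF11 and MLX (3 of 8 members with a window, against 12.3% of tested genes with a window and 7.26% of all windows), and in neither of the 2 windows of TXNIP. The stretch of ARRDC4 is shown with it in capitals (GRCh38.p14).
ARRDC4, chr15:97960468-97960523, plus strand: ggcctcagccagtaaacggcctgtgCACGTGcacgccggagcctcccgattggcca
Of the 9 genes of this glucose-sensing group 5 were higher and 1 lower. The lower one was MLXIP, which encodes MondoA, the glucose sensor of the group (log2 -0.55 ± 0.063, adjusted p = 2.72e-10).

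**Figure D2:**
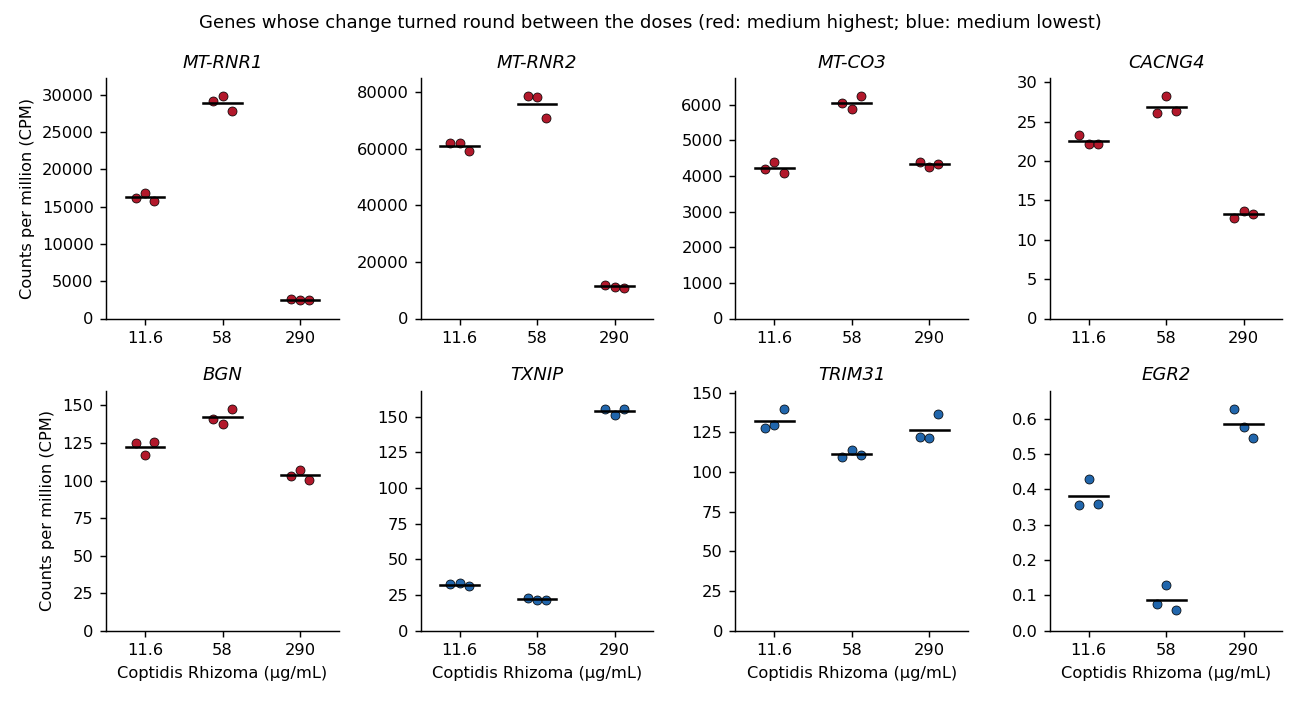
Each panel shows a gene in the 9 Coptidis Rhizoma libraries, with dose in µg/mL on the x axis and CPM on the y axis. Points are libraries and bars are means of 3. In the red panels the medium dose is highest, and in the blue panels lowest. MT-RNR1 reaches 27864 to 29806 CPM at the medium dose and at most 2648 CPM at the high dose.

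The remaining 4 reversals were small or rested on few counts. CACNG4, a subunit that modulates glutamate receptors and calcium channels in neurons, had 12.7, 13.7 and 13.3 CPM in the high-dose libraries, against 26.1, 28.2 and 26.4 CPM in the medium-dose libraries, and 23.3, 22.2 and 22.2 CPM at the low dose. It fell by 1.02 ± 0.067 at the second step (adjusted p = 2.15e-18) after a first step of 0.25 ± 0.063 (adjusted p = 0.0215). BGN, the matrix proteoglycan biglycan, showed the same course with a second step of -0.46 ± 0.054 (adjusted p = 6.78e-10) and a first of 0.21 ± 0.054 (adjusted p = 0.0235). TRIM31, a ubiquitin ligase of the gut, was lowest at the medium dose, with a second step of 0.18 ± 0.066 (adjusted p = 0.0183) that was not called without high replicate 3 (adjusted p = 0.149). EGR2, an immediate-early transcription factor, had 0.629, 0.577 and 0.544 CPM in the high-dose libraries, against 0.075, 0.129 and 0.0594 CPM in the medium-dose libraries, which are very low levels (second step 2.62 ± 0.56, adjusted p = 7.13e-06). These 4 reversals were kept in 9 to 11 of the 16 alternatives. Under the alternatives the first step ran from -2.39 to -1.88 for EGR2 and from -0.27 to -0.21 for TRIM31. Without 1 Coptidis Rhizoma library at a time the number of reversing genes ran from 4 to 10.

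Among the genes that start at the top dose, the second step ranged from 1.00 to 2.59 for those that rose (median 1.26) and down to -2.55 for those that fell (median -1.17). Of the 136 that rose, 127 were protein-coding, and of the 132 that fell, 104 were. ARRDC4 led those that rose. PPP1R15A (ENSG00000087074, chromosome 19: 48872392-48876057), which encodes GADD34, the subunit that directs a phosphatase to eIF2α and so ends the integrated stress response, had 164, 153 and 157 CPM in the high-dose libraries, against 31.9, 28.1 and 31.8 CPM in the medium-dose libraries. The groups were far apart, while the low-dose libraries (30.6, 29.6 and 29.8 CPM) overlapped the medium ones. Its second step was 2.37 ± 0.06 (adjusted p = 1.03e-34) and its first 0.026 ± 0.062 (adjusted p = 0.994). SLFN5, an interferon-inducible Schlafen protein, rose 5.11-fold (adjusted p = 1.51e-26). AKNA, an AT-hook protein found at microtubule-organising centres, rose 4.62-fold (adjusted p = 5.76e-28). The stress cytokine GDF15 had 199, 174 and 155 CPM in the high-dose libraries, against 49.6, 47.5 and 43.5 CPM in the medium-dose libraries and rose 3.75-fold (adjusted p = 7.3e-20). Also in the 10 largest were MX1 (described with the interferon genes), FLRT1, an adhesion protein (3.8-fold), ARG2, the mitochondrial arginase (3.73-fold), SGTB, a co-chaperone (3.59-fold), and the kinase FYN (3.56-fold).

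Of the genes that start lower at the top dose, the 10 with the largest falls were these. MYB, a transcription factor of proliferating crypt cells, had 9.97, 9.67 and 10.2 CPM in the high-dose libraries, against 34, 35.6 and 37 CPM in the medium-dose libraries, and 41, 38.6 and 38.6 CPM at the low dose. It fell 3.56-fold (log2 -1.83 ± 0.061, adjusted p = 2.53e-30). RASL11A, a small GTPase of the nucleolus, fell 5.18-fold (adjusted p = 8.17e-24), the water channel AQP1 4.61-fold (adjusted p = 2.58e-22) and CEMIP, a protein that acts in hyaluronan breakdown, 4.27-fold (adjusted p = 5.3e-20). ADRA2A, the α2A adrenergic receptor, had 8.85, 9.16 and 8.88 CPM in the high-dose libraries, against 33.3, 35.9 and 34 CPM in the medium-dose libraries (log2 -1.94 ± 0.068, adjusted p = 2.63e-29). LGALS2, an epithelial galectin, DKK1, a secreted Wnt antagonist, and IHH, a hedgehog ligand of differentiated colon cells, fell by 1.98, 1.76 and 1.75 (log2; adjusted p = 3.44e-12, 2.59e-16 and 3.03e-17). The noncoding FOXD2-AS1 and the pseudogene ZDHHC8BP completed the 10 largest (3.57-fold and 3.53-fold lower).

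Some of the largest second steps could not be placed as starts, since the genes were near silent at the lower doses. LAMP3 (ENSG00000078081, chromosome 3: 183122213-183163839), a lysosomal membrane protein induced by stress and interferon, had 15.7, 17.1 and 17.8 CPM in the high-dose libraries, against 0.262, 0.172 and 0.297 CPM in the medium-dose libraries. The low dose gave 0.25, 0.215 and 0.238 CPM, and the second step was 6.10 ± 0.39 (adjusted p = 3.39e-23). CLGN, a chaperone of the endoplasmic reticulum first known from testis, had 6.15, 7.94 and 6.77 CPM in the high-dose libraries, against 0.225, 0.344 and 0.178 CPM in the medium-dose libraries (log2 4.75 ± 0.41, adjusted p = 1.31e-16). UNC5B, a netrin receptor, rose by 4.52 ± 0.29 (adjusted p = 5.72e-20), ITPKA, a kinase of inositol trisphosphate, by 3.57 ± 0.21 (adjusted p = 7.98e-21) and LARP6, a collagen messenger RNA binding protein, by 2.83 ± 0.15 (adjusted p = 1.11e-22). None of these 5 was called at the first step. NIBAN1, a stress protein of the eIF2α pathway, rose 14-fold (adjusted p = 7e-32) and had been called at the first step (0.74 ± 0.13, adjusted p = 0.000318).

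Interferon genes rose at the second step, and none was called at the first. Type I and III interferons act through a factor complex that includes IRF9, which binds interferon-stimulated response elements and switches on antiviral genes. Of 34 tested interferon genes 33 were higher at the high dose, none lower, and IFITM2 alone was not called, where 24.4% of all genes were higher. The median log2 difference was 1.27, against -0.0005 over all genes. Their median at the first step was -0.037. In the direct test 29 had a larger second than first step, and 15 met the rule for a start at the top dose. MX1 (ENSG00000157601, chromosome 21: 41420304-41459214), an antiviral GTPase, had 41.5, 42.1 and 38.4 CPM in the high-dose libraries, against 9.75, 9.94 and 11 CPM in the medium-dose libraries, and 11.8, 11.5 and 11.9 CPM at the low dose. It rose 3.99-fold (log2 1.99 ± 0.13, adjusted p = 1.25e-17), with no overlap between high and the lower doses. OAS1, which makes the activator of RNase L, had 77, 77.6 and 75.8 CPM in the high-dose libraries, against 28.3, 31.9 and 33.8 CPM in the medium-dose libraries, with 34.5, 33.7 and 30.4 CPM at the low dose, and rose 2.46-fold (adjusted p = 1.83e-18). IFIH1, the sensor of long double-stranded RNA known as MDA5, had 29.7, 30.4 and 31.7 CPM in the high-dose libraries, against 12.4, 12.8 and 13.2 CPM in the medium-dose libraries (log2 1.26 ± 0.081, adjusted p = 1.13e-18). IFIT3, of the family that binds foreign RNA ends, rose by 1.24 ± 0.085 (adjusted p = 1.35e-17). XAF1, an interferon-induced binding partner of XIAP, was among the 10 largest rises of all (9.03, 8.66 and 7.72 CPM in the high-dose libraries, against 0.937, 0.56 and 1.66 CPM in the medium-dose libraries, log2 3.07 ± 0.37, adjusted p = 5.74e-10).

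Stretches of the promoters of these genes are shown for the response element that defines them. Of the 34 genes, 27 had a promoter window in RefSeq (GRCh38.p14), and 19 of those 27 (70.4%) held the core GAAANNGAA on either strand. The core was found in 8.11% of all 35116 windows and in 8.74% of the 11232 tested genes with a window. Of the 136 genes that start higher at the top dose, 113 had a window and 22 (19.5%) held it. These 136 include 15 of the interferon genes, so the counts overlap. The capitals mark the core, in MX1 as a pair of overlapping matches.
IFI44L, chr1:78620259-78620317, plus strand: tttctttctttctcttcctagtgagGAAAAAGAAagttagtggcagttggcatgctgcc
EPSTI1, chr13:42992258-42992316, minus strand: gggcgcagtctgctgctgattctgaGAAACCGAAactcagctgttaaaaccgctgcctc
ISG20, chr15:88638922-88638980, plus strand: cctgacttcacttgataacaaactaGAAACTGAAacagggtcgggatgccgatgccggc
MX1, chr21:41420544-41420602, plus strand: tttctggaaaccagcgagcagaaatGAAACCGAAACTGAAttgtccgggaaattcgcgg
These 4 were taken by size of change among members that held the core. A match is a description of letters and does not show that a factor bound there.

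Antigen presentation and inflammatory genes moved with them. Of 19 genes of MHC class I presentation 15 were higher and 1 lower (the chaperone CALR), with a median of 0.51. None was called at the first step, where their median was 0.094. TAP1, a subunit of the peptide pump into the endoplasmic reticulum, had 28.3, 29.9 and 26.6 CPM in the high-dose libraries, against 11.5, 11.2 and 10.2 CPM in the medium-dose libraries (log2 1.36 ± 0.098, adjusted p = 8.08e-17), and HLA-E, a class I molecule seen by natural killer cells, rose by 0.53 ± 0.051 (adjusted p = 1.29e-12). Reads of HLA genes can be shared between close relatives, so single values are uncertain. Of 28 NF-kB subunits, feedback genes and chemokines 19 were higher and 2 lower (median 0.50). Again none was called at the first step (median 0.013), where under 1% of all genes were called in either direction. IRF1, a transcription factor shared by NF-kB and interferon signalling, had 64.3, 65.7 and 63.7 CPM in the high-dose libraries, against 33.6, 32.6 and 35.6 CPM in the medium-dose libraries (log2 0.93 ± 0.059, adjusted p = 1.16e-18). RELB, a subunit of the noncanonical pathway, rose by 0.98 ± 0.11 (adjusted p = 4.56e-11) and BIRC3, an inhibitor of apoptosis, by 0.99 ± 0.11 (adjusted p = 1.37e-10). Of 31 immediate-early and ERK feedback genes 21 were higher and 4 lower (median 0.43). AREG and EREG, ligands of the EGF receptor, rose 3.53-fold and 2.88-fold (adjusted p = 9.17e-17 and 8.88e-27), and HBEGF, another ligand, 2.67-fold (adjusted p = 3.99e-19). EREG was already called at the first step (adjusted p = 3.29e-05), AREG and HBEGF were not.

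**Figure D3:**
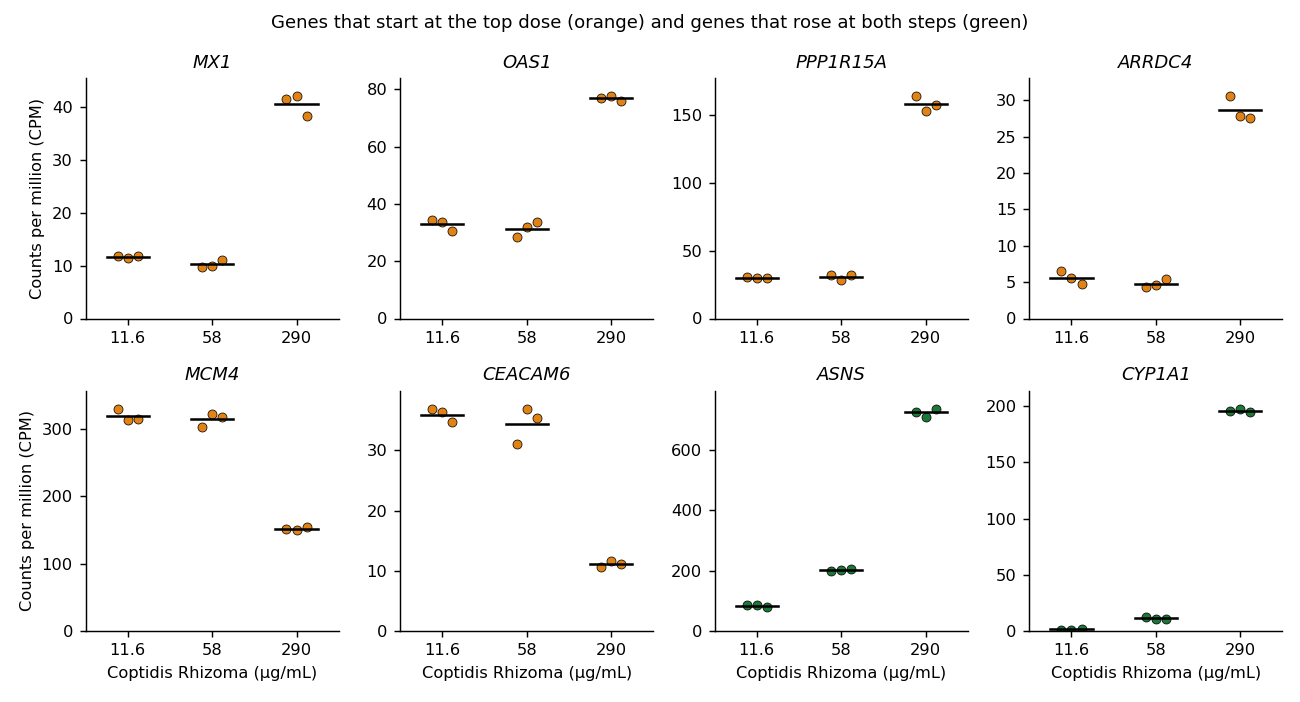
Each panel shows a gene in the 9 Coptidis Rhizoma libraries, with dose in µg/mL on the x axis and CPM on the y axis. Points are libraries and bars are means of 3. The orange genes were not called between 58 and 11.6 µg/mL and differ at 290 µg/mL, whereas ASNS and CYP1A1 (green) are already higher at 58 µg/mL.

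Some genes of the ATF4 branch were already higher at the medium than at the low dose, and others were not called there. Of 23 tested ATF4 regulators and targets 18 were higher at the high dose and none lower (median 1.5), and 12 had already been called higher at the first step (median 0.37). The second step exceeded the first in 13. TRIB3, a pseudokinase that feeds back on ATF4, had 48.5, 46 and 46.8 CPM at the low, 78.4, 78.7 and 76.9 CPM at the medium and 401, 410.1 and 375 CPM at the high dose. Its steps were 0.73 ± 0.064 and 2.34 ± 0.062 (adjusted p = 4.8e-12 and 1.21e-33). DDIT3, which encodes CHOP, the factor that turns a lasting stress response towards cell death, had 75.5, 67.1 and 71 CPM in the high-dose libraries, against 9.26, 8.69 and 8.91 CPM in the medium-dose libraries. It rose 7.94-fold (log2 2.99 ± 0.11, adjusted p = 4.65e-28), with a first step of 0.48 ± 0.12 (adjusted p = 0.028). VEGFA, the vascular growth factor, and CEBPG, a dimer partner of ATF4, rose at both steps (second step 1.69 ± 0.048 and 1.29 ± 0.044, adjusted p = 2e-32 and 2.39e-29). PPP1R15A and GDF15 were the members that started at the top dose. Of 20 members with a promoter window 5 (25.0%) held TGATGNAA, the core of a C/EBP-ATF response element, which was in 3.62% of all windows. A stretch of the window of CHAC1, a glutathione-degrading enzyme, is shown with the match, which reads on the opposite strand, in capitals.
CHAC1, chr15:40953237-40953294, plus strand: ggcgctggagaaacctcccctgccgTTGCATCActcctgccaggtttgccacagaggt

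ASNS (ENSG00000070669, chromosome 7: 97852118-97872542), asparagine synthetase, had 85.9, 85.6 and 79.8 CPM at the low, 199, 201 and 204 CPM at the medium and 728, 710.1 and 738 CPM at the high dose, and its steps were 1.26 ± 0.058 and 1.85 ± 0.056 (adjusted p = 1.85e-22 and 2.83e-31). Of 21 enzymes of asparagine, serine and one-carbon metabolism 13 were higher and 5 lower, and 11 were called higher at the first step. PSAT1, of serine synthesis, rose 2.58-fold (adjusted p = 1.04e-28), and CTH, which makes cysteine, 5.71-fold (adjusted p = 2.75e-26). Of 19 amino acid transporters 10 were higher and 6 lower (8 higher at the first step). The glycine carrier SLC6A9 had 1.03, 0.889 and 1.15 CPM at the low, 3.71, 4.65 and 4.51 CPM at the medium and 48.5, 54.1 and 48.5 CPM at the high dose, a rise at both steps (second step 3.56 ± 0.18, adjusted p = 1.31e-22). SLC7A11, the cystine carrier, rose 2.67-fold at the second step (adjusted p = 6.53e-23). Of 20 cytosolic aminoacyl-tRNA synthetases 13 were higher and 2 lower, and 12 were higher at the first step. WARS1, which also responds to interferon, rose 3.23-fold (adjusted p = 9.88e-34), and GARS1 2.18-fold (adjusted p = 1.63e-30).

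Chaperones of the endoplasmic reticulum split. Of 25 members 13 were higher and 10 lower (median 0.28), with 1 called higher at the first step. ERN1, which encodes the stress sensor IRE1, had 58.4, 56.5 and 56.3 CPM in the high-dose libraries, against 17, 17.4 and 16.2 CPM in the medium-dose libraries and started at the top dose (log2 1.76 ± 0.074, adjusted p = 1.19e-25), as did XBP1, the factor whose messenger RNA it splices, and DNAJB9. HERPUD1, of protein degradation from this organelle, rose 2.68-fold (adjusted p = 1.18e-26) and the chaperone HYOU1 1.59-fold (adjusted p = 7.33e-21). PDIA4, a folding enzyme of the same organelle, fell (log2 -0.63 ± 0.04, adjusted p = 1.45e-18), and so did HSP90B1, CALR, PDIA3 and PDIA6. Of 19 cytosolic and mitochondrial chaperones 4 were higher (21.1%, near the 24.4% of all genes) and 8 lower (42.1%, against 22.2%). Their median was -0.089. HSPA9, the mitochondrial HSP70, and LONP1, the mitochondrial protease, rose by 0.89 ± 0.039 and 0.67 ± 0.058 (adjusted p = 5.95e-25 and 6.72e-14), whereas the cytosolic HSPA8 fell (log2 -0.57 ± 0.046, adjusted p = 7.88e-15).

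Of 33 lysosome and autophagy genes 13 were higher (39.4%, against 24.4% of all genes) and 5 lower (15.2%, against 22.2%). Their median was 0.086. MAP1LC3B, the LC3 protein of autophagosomes, had 174, 167 and 174 CPM in the high-dose libraries, against 49, 55.2 and 51.3 CPM in the medium-dose libraries and started at the top dose (log2 1.73 ± 0.053, adjusted p = 3.65e-31). ULK1, the kinase that begins autophagy, started there too (2.31-fold, adjusted p = 3.35e-19), and the cargo receptor SQSTM1 rose 1.96-fold (adjusted p = 1.08e-19). Of 24 p53 target genes 10 were higher (41.7%, against 24.4% of all genes) and 7 lower (29.2%, against 22.2%), with a median of 0.071. CDKN1A, the cyclin-dependent kinase inhibitor p21, had 53.4, 52.9 and 49.9 CPM in the high-dose libraries, against 15.4, 15.5 and 18.4 CPM in the medium-dose libraries, with 15.2, 14.8 and 14.7 CPM at the low dose, and rose 3.18-fold (adjusted p = 3.3e-24). TNFRSF10B, the TRAIL receptor DR5, which CHOP also controls, rose 1.82-fold (adjusted p = 7.16e-20). Of 28 BCL2 family and cell death genes 16 were higher and 3 lower (median 0.28). BMF, a BH3-only death protein, rose 2.87-fold (adjusted p = 1.12e-18), and BIRC2, an inhibitor of apoptosis, also rose (1.66-fold, adjusted p = 4.39e-15).

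DNA replication genes fell at the second step, and none was called at the first. All 35 tested replication genes were lower at the high dose, where 22.2% of all genes were, with a median of -0.69. Their median at the first step was 0.015, and in 32 the second step lay below the first. MCM4, a subunit of the replicative helicase, had 152, 150.2 and 154 CPM in the high-dose libraries, against 304, 322 and 319 CPM in the medium-dose libraries, while the low dose gave 331, 314 and 316 CPM. It fell 2.07-fold (log2 -1.05 ± 0.039, adjusted p = 8.42e-28) and was 1 of 3 replication genes that met the rule for a start. UHRF1, which carries DNA methylation through replication, had 52.9, 52.7 and 51.6 CPM in the high-dose libraries, against 99.2, 98.9 and 97.2 CPM in the medium-dose libraries (log2 -0.91 ± 0.04, adjusted p = 4.18e-25). MCM3, of the same helicase, fell by 0.69 and CDC25A, a phosphatase that opens S phase, by 0.90 (adjusted p = 1.21e-20 and 4.27e-20).

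Replication genes are known targets of E2F factors, and stretches of their promoters are shown for that motif. Of 31 members with a window 16 (51.6%) held TTTNGCGC on either strand, which was in 1.79% of all windows and in those of 3.52% of the tested genes with a window. Of the 132 genes that start lower at the top dose, 92 had a window and 1 (1.09%) held it. Capitals mark the motif in the members with the largest falls among those that held it.
UHRF1, chr19:4909959-4910016, plus strand: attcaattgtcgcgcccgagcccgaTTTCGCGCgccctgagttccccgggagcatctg
CDC25A, chr3:48188429-48188486, minus strand: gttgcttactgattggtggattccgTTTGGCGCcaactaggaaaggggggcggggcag
E2F1, chr20:33686373-33686430, minus strand: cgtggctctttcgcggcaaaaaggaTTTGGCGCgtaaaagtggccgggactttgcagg
POLE2, chr14:49688263-49688320, minus strand: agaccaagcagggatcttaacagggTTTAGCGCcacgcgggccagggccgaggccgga
The motif lay on the strand shown in all of them, and E2F1 encodes a factor that binds it.

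Mitosis and repair genes fell with replication, though less deeply by their medians. Of 30 mitosis genes 26 were lower and 1 higher (median -0.32), and none was called at the first step (median 0.026). The spindle checkpoint kinase BUB1B had 70.0, 75 and 84.4 CPM in the high-dose libraries, against 109, 111 and 108 CPM in the medium-dose libraries (log2 -0.52 ± 0.053, adjusted p = 1.25e-11), and cyclin A2 (CCNA2) fell by 0.48 ± 0.054 (adjusted p = 1.63e-10). The member that rose was CDC25B, a phosphatase that starts mitosis (log2 0.35 ± 0.043, adjusted p = 1.28e-09). Of 31 DNA repair genes 23 were lower and 3 higher (median -0.44). LIG1, the ligase that joins Okazaki fragments, had 47.3, 47.1 and 47 CPM in the high-dose libraries, against 95.9, 96.1 and 89.2 CPM in the medium-dose libraries (log2 -0.99 ± 0.053, adjusted p = 1.43e-21), and the mismatch repair gene MSH6 fell by 0.91 (adjusted p = 3.11e-19). Of 21 tested histone genes 9 were higher and none lower (median 0.47), but 7 were higher and 2 lower in the fit of the 9 Coptidis Rhizoma libraries alone, and 8 higher and 1 lower without the filter on low counts. H2AC6, a histone of the H2A family, rose 3.07-fold (adjusted p = 1.53e-20). Histone genes of a cluster are alike in sequence and their messages mostly lack a poly(A) tail, so their values are uncertain.

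Of 30 genes of ribosome biogenesis and MYC 16 were lower and 7 higher (median -0.16), and 4 were higher without the filter on low counts. The nucleolar proteins NOP56 and NCL fell by 0.47 and 0.38 (adjusted p = 8.42e-09 and 3.25e-07), while RRN3, the initiation factor of RNA polymerase I, rose (log2 0.47 ± 0.051, adjusted p = 5.33e-11). Of 79 cytosolic ribosomal proteins 12 were higher and none lower (15.2%, below the 24.4% of all genes), with a median of 0.16. Their share of the counts was 6.45 to 7.26% at the high and 5.24 to 5.72% at the medium dose. The number called was 36 in a fit of the 9 Coptidis Rhizoma libraries alone and 41 without the filter on low counts. RPL4 rose by 0.31 ± 0.071 (adjusted p = 0.000276). Of 18 snoRNA host genes 8 were higher and 3 lower, with ZFAS1 2.11-fold higher and SNHG4 2.21-fold lower (adjusted p = 2.64e-14 and 8.18e-16). Of 31 genes of the proteasome list 1 was higher and 4 lower, smaller shares than over all genes (3 higher and 7 lower in the fit of the 9 Coptidis Rhizoma libraries alone). The member that rose was NFE2L1, not a subunit but the factor that renews them (log2 0.86 ± 0.058, adjusted p = 8.43e-18). Of 30 genes of RNA polymerase II, splicing and short-lived RNA control 11 were higher and 5 lower (median 0.052).

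**Figure D4:**
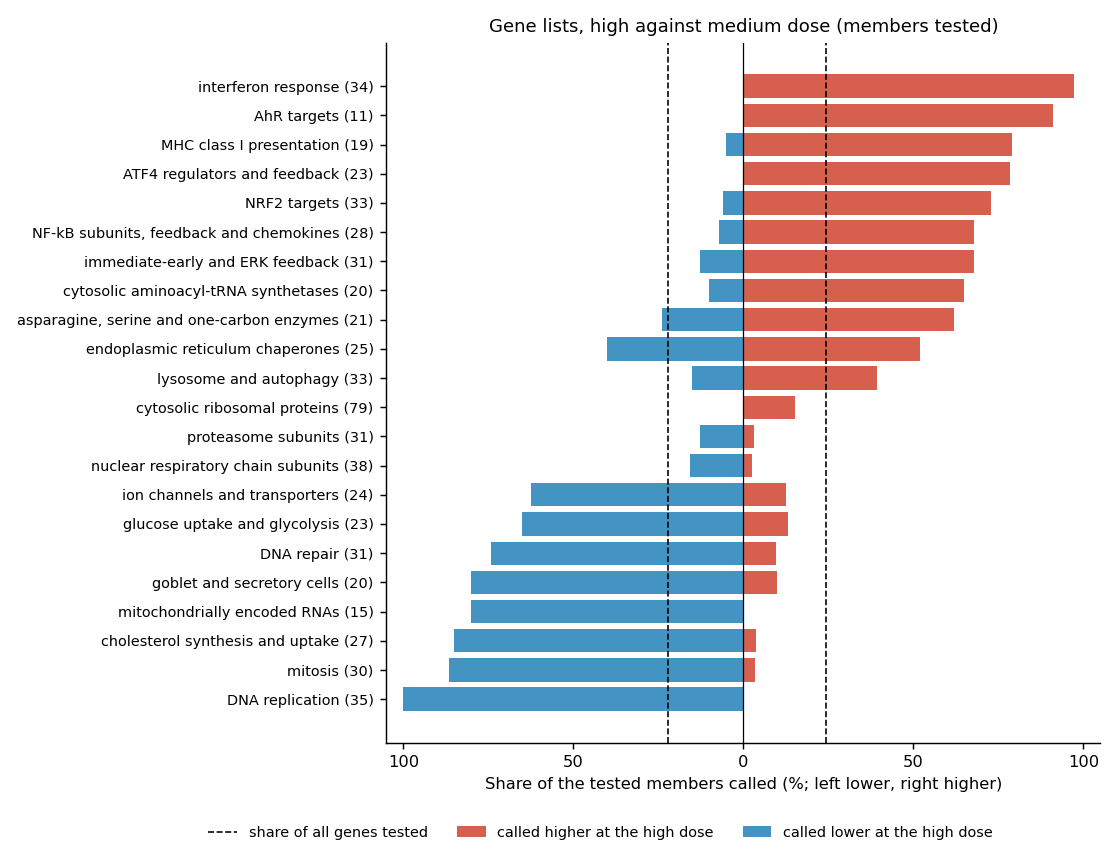
For 22 of the 47 gene lists, the bars give the share of tested members called higher (right, red) and lower (left, blue) at the high against the medium dose, in percent of the members in brackets. Dashed lines mark the shares over all genes tested, 24.4% higher and 22.2% lower. Interferon genes reach 97.1% higher and replication genes 100% lower.

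Many detoxification genes rose at both steps. CYP1A1 (ENSG00000140465, chromosome 15: 74719542-74725610), the cytochrome P450 that best reports AhR activity, had 1.07, 1.07 and 1.35 CPM at the low, 12.6, 10.8 and 10.5 CPM at the medium and 196, 198 and 194 CPM at the high dose. The doses did not overlap. The steps were 3.29 ± 0.18 and 4.11 ± 0.10 (adjusted p = 3.69e-22 and 5.1e-35). CYP1B1, of the same family, rose 3.03-fold at the second step (adjusted p = 7.02e-23), and of 11 AhR targets 10 were higher and none lower (6 higher at the first step). Of 33 NRF2 targets 24 were higher and 2 lower (median 0.42), and 12 were higher at the first step. GCLC, of glutathione synthesis, had 195, 199.7 and 204 CPM in the high-dose libraries, against 107, 100.1 and 102 CPM in the medium-dose libraries (log2 0.95 ± 0.047, adjusted p = 4.68e-23). TXNRD1, thioredoxin reductase, rose 1.92-fold (adjusted p = 1.58e-21) and NQO1, a quinone reductase, 1.79-fold (adjusted p = 6.01e-17). HMOX1, haem oxygenase, started at the top dose (33.5, 36.2 and 33.7 CPM in the high-dose libraries, against 11.2, 13.2 and 12.5 CPM in the medium-dose libraries, log2 1.49 ± 0.076, adjusted p = 2.12e-22). Of 19 drug efflux and conjugation genes 3 were higher (15.8%, against 24.4% of all genes) and 6 lower (31.6%, against 22.2%). Their median was -0.04. The efflux pump ABCG2 fell by 0.51 ± 0.053 (adjusted p = 2.29e-11), and CYP3A5, a drug-metabolising P450, rose (log2 0.32 ± 0.044, adjusted p = 2.96e-08).

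Most genes of cholesterol synthesis fell. SREBP2 drives them when sterols are scarce. Of 27 genes of cholesterol synthesis and uptake 23 were lower and 1 higher (median -0.62), and 4 were lower at the first step. The one that rose was MYLIP, which breaks down the LDL receptor. INSIG1, the sterol-regulated anchor of SREBP, had 64.6, 54.1 and 55.4 CPM in the high-dose libraries, against 142, 126 and 131 CPM in the medium-dose libraries (log2 -1.20 ± 0.059, adjusted p = 4.38e-23). DHCR7, of the last step of synthesis, fell 1.91-fold and SQLE, squalene epoxidase, 1.73-fold (adjusted p = 5.09e-21 and 4.21e-23). Of 18 genes of fatty acid synthesis and desaturation 9 were lower (50%, against 22.2% of all genes) and 4 higher (22.2%, near the 24.4% of all genes). FASN, fatty acid synthase, was 1.96-fold lower (adjusted p = 9.27e-13). Of 9 LXR targets and sterol exporters 5 were higher and 2 lower, and ABCG1, a sterol exporter, had 34.1, 38 and 38.8 CPM in the high-dose libraries, against 10.6, 10.5 and 11.2 CPM in the medium-dose libraries (log2 1.78 ± 0.09, adjusted p = 1.57e-22). Of 18 genes of fatty acid oxidation 9 were higher and 3 lower, ACADM, an acyl-CoA dehydrogenase, by 0.59 ± 0.067 (adjusted p = 2.23e-10). Of 23 genes of glucose uptake and glycolysis 15 were lower and 3 higher (median -0.21). LDHA, lactate dehydrogenase, had 599, 581 and 618 CPM in the high-dose libraries, against 837, 903 and 905 CPM in the medium-dose libraries (log2 -0.56 ± 0.052, adjusted p = 6.07e-13). Hypoxia targets outside glycolysis went mostly the other way (13 of 21 higher, 2 lower), yet CA9, a carbonic anhydrase strongly induced by hypoxia, fell 2.4-fold and started at the top dose (adjusted p = 4.28e-12).

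Most of the secretory cell genes and many crypt genes fell. Of 20 goblet and secretory cell genes 16 were lower and 2 higher (median -0.67), with 4 lower at the first step. MUC2, the main gel-forming mucin of the colon, had 4.00, 7.11 and 6.19 CPM in the high-dose libraries, against 26.1, 24.9 and 23.1 CPM in the medium-dose libraries (log2 -2.08 ± 0.24, adjusted p = 4.64e-10). BCAS1, which is abundant in goblet cells, had 15.2, 14.8 and 14.2 CPM in the high-dose libraries, against 58.9, 61.1 and 59 CPM in the medium-dose libraries and fell 4.06-fold (adjusted p = 1.11e-28). AGR3, a disulfide isomerase of secretory cells, fell 6.00-fold (adjusted p = 4.59e-19), and the noncoding LINC00261, which lies beside FOXA2, 4.52-fold (adjusted p = 5.93e-21). KLF4, a goblet cell factor that is also an immediate-early gene, rose 3.14-fold (adjusted p = 6.42e-21). Of 23 enterocyte and CEACAM genes 12 were lower and 4 higher. The adhesion proteins CEACAM6 and CEACAM5 fell 3.07-fold and 2.95-fold (adjusted p = 2.66e-25 and 2.25e-13), both starting at the top dose. Of 21 Wnt targets and stem cell genes 13 were lower and 2 higher (median -0.31). LGR5, the stem cell receptor for R-spondin, had 12.1, 11.2 and 11.6 CPM in the high-dose libraries, against 25.3, 28.5 and 27.9 CPM in the medium-dose libraries (log2 -1.23 ± 0.065, adjusted p = 8.67e-22), and CD44 fell 1.87-fold (adjusted p = 1.29e-21).

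The lists of this paragraph read against 24.4% higher and 22.2% lower over all genes. Of 30 tight junction and adhesion genes 11 were higher and 10 lower (median -0.035), calls in both directions as over all genes. CLDN2, a claudin that forms cation pores, had 28.1, 30.2 and 29.1 CPM in the high-dose libraries, against 108, 112 and 117 CPM in the medium-dose libraries and fell 3.85-fold (adjusted p = 3.9e-35), while the sealing CLDN1 rose (log2 0.63 ± 0.058, adjusted p = 4.94e-13). Of 24 ion channels and transporters 15 were lower and 3 higher (median -0.22). CFTR, the chloride channel, had 79.3, 88.4 and 93.1 CPM in the high-dose libraries, against 155, 154 and 163 CPM in the medium-dose libraries (log2 -0.85 ± 0.083, adjusted p = 2.36e-12), and KCNQ1, a potassium channel of the same secretion route, fell by 0.92 (adjusted p = 5.17e-16). NOX1, the NADPH oxidase of the colon, fell 3.39-fold (adjusted p = 8.27e-20), and DUOX1, another oxidase, rose 2.16-fold (adjusted p = 1.44e-06); of the 7 NADPH oxidase genes 1 was higher and 2 lower, too few to set against those shares. Of 19 TGF-beta and mesenchymal genes 11 were higher and 2 lower, with the inhibitory SMAD7 up by 0.68 ± 0.075 (adjusted p = 1.04e-10). Of 18 circadian genes 10 were higher and 1 lower, NR1D2, a nuclear receptor of the clock, by 0.98 ± 0.061 (adjusted p = 3.63e-19). Of 23 iron and haem genes 7 were higher and 10 lower, the exporter SLC40A1 falling by 0.55 (adjusted p = 7.42e-11). Of 24 FOXO and insulin signalling genes 7 were higher and 7 lower (29.2% each way), near the shares of all genes, and 4 were higher without the filter on low counts. Of 13 metallothionein and zinc genes 6 were higher and 2 lower.

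The step from medium to high was also set against the same step in other extracts, whose doses differ from those of Coptidis Rhizoma. Scutellariae Radix at 500 against 100 µg/mL gave 408 genes higher (2.46%) and 437 lower (2.63%). The step of Coptidis Rhizoma minus that of Scutellariae Radix, tested as an interaction, was positive for 2992 genes (18%) and negative for 2618 (15.8%). Most cholesterol genes went opposite ways: in Coptidis Rhizoma 1 of 27 was higher and 23 lower, and in Scutellariae Radix 21 were higher and 1 lower, with 24 negative interactions. CYP1A1 also went opposite ways. It averaged 196 CPM at the high and 11.3 CPM at the medium dose of Coptidis Rhizoma, and 57 CPM at the high and 159 CPM at the medium dose of Scutellariae Radix (interaction 5.59 ± 0.13, adjusted p = 2.85e-35). Interferon genes were higher in 33 of 34 cases in Coptidis Rhizoma and in 2 in Scutellariae Radix, where 4 were lower, and 32 interactions were positive. XAF1, UBE2L6, the conjugating enzyme of ISG15, and IFI44L were among the largest (4.99 ± 0.83, 4.06 ± 0.51 and 3.91 ± 0.60; adjusted p = 4.49e-07, 1.28e-09 and 1.9e-07). All 35 replication genes were lower in Coptidis Rhizoma, while in Scutellariae Radix 1 was higher and 2 lower, with 33 negative interactions. Of 33 NRF2 targets 24 were higher in Coptidis Rhizoma and 21 in Scutellariae Radix.

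**Figure D5:**
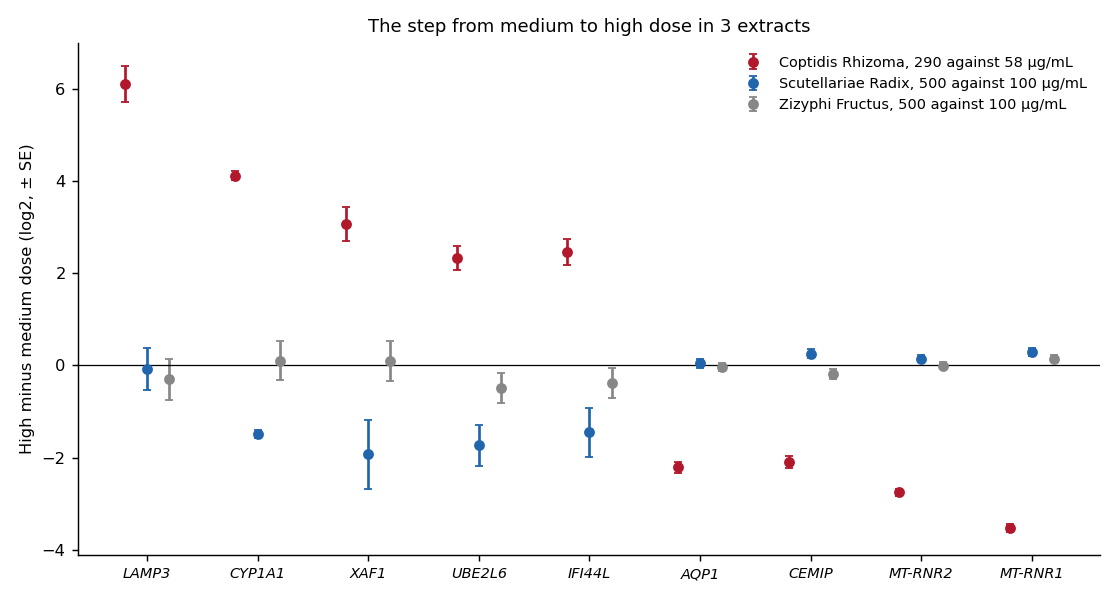
Points give the log2 difference between high and medium dose in Coptidis Rhizoma (red), Scutellariae Radix (blue) and Zizyphi Fructus (grey) for 5 genes with the largest positive and 4 of the 5 with the largest negative difference between the first pair, and bars give the standard error. CYP1A1 is positive in Coptidis Rhizoma (4.11) and negative in Scutellariae Radix (-1.48).

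Genes that start at the top dose of Coptidis Rhizoma were mostly not called at the step of Scutellariae Radix. Still, a larger share of them than of all genes was called there, in either direction but more often in the same one. The rule for a start passes only genes with a narrow first-step interval. Whether this raised the shares was not tested. Of the 136 that rose, 25 were higher and 10 lower there, and of the 132 that fell, 4 were higher and 21 lower, where 2.46% of all genes were higher and 2.63% lower. Zizyphi Fructus, which shares a set of sample codes with Coptidis Rhizoma, had 5 genes called at 500 against 100 µg/mL, all higher: AKR1B10, AKR1C1, AKR1C2, GCLM and NQO1, all targets of NRF2, named after their values were seen. There were 4147 genes with an unadjusted p under 0.05. Without its high replicate 3, which took 8.26% of its counts from ribosomal protein genes against 5.22 to 5.65% in its other high-dose libraries, no gene was called by edgeR and 502 had an unadjusted p under 0.05. The step of Coptidis Rhizoma minus that of Zizyphi Fructus was positive for 3020 genes (18.2%) and negative for 3115 (18.8%), 6135 in all and 5637 without that library. MT-RNR1, MT-RNR2, LAMP3, AQP1 and CEMIP had interactions with both extracts in the direction of their Coptidis Rhizoma step. For MT-RNR1 the step was -3.52 in Coptidis Rhizoma, 0.29 in Scutellariae Radix and 0.15 in Zizyphi Fructus (adjusted p of the interactions = 1.2e-30 and 9.74e-30).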

How the data were processed

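Per the labels' protocols, total RNA of HT29 cells with an RNA integrity number above 7 was made into directional messenger RNA libraries and sequenced as paired reads of 100 bp on an MGI instrument. The authors deposited expected counts for each gene, not scaled between libraries. The submitters' processing notes name RSEM 1.3.3, STAR 2.7.3a, FastQC 0.11.9 and Trim Galore 0.6.5, and the build GRCh38. The annotation release is not given in the sources used here. The table also held 210 columns that match no sample here and were not used. As RSEM divides reads between genes, 8.75% of values were not whole, and all were rounded to whole counts. Positions are those of GENCODE release 29. The 60 libraries held 11.1 to 34.4 M counts (median 23.4 M). No library was a copy of another: the smallest chi-square per gene between Coptidis Rhizoma libraries was 2.85.

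The rounded counts entered edgeR 4.0.16 (R 4.3.3), with TMM scaling, the filterByExpr filter (16609 genes left) and robust quasi-likelihood. The design had a coefficient for each group of the 60 libraries, which left 40 residual degrees of freedom. P-values were adjusted by Benjamini-Hochberg over each contrast and called below 0.05. The code was tested on simulated data. Alternatives were the DESeq2 1.42.0 size factors and Wald test, scaling without mitochondrial and ribosomal protein genes, and no filter on low counts. Others were only the Coptidis Rhizoma libraries or those of the doses compared, a block for the replicate number, and other limits in the rules. Each Coptidis Rhizoma library was also left out in turn. Leaving out Zizyphi Fructus high replicate 3 was chosen after seeing the data.

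The comparison, the 47 gene lists and the rules were chosen with earlier results of these data known. Genes were named by rule among those called, with at least 5 CPM in the higher group and no overlap between libraries: the 10 largest differences in each direction, overall and among top-dose starts. Added were the reversals, up to 4 members of each list by smallest p with no CPM minimum, and the 5 largest differences from Scutellariae Radix in each direction. A few genes outside these rules (EGR2, CALR, XBP1, DNAJB9, IFITM2, HSP90B1, PDIA3, PDIA6, other mitochondrial genes, and those named with their promoters) were named after their values were seen. A few genes that the rules pick are not reported here.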

Additional observations from a re-analysis of the deposited data

Results flagged for a closer look

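The step from medium to high dose differed between Coptidis Rhizoma and Scutellariae Radix for 5610 genes in edgeR's interaction test, and between Coptidis Rhizoma and Zizyphi Fructus for 6135. The 5 largest differences from Scutellariae Radix in favour of Coptidis Rhizoma were those of LAMP3 (6.17), CYP1A1 (5.59), XAF1 (4.99), UBE2L6 (4.06) and IFI44L (3.91), on the log2 scale. Among the 5 largest in the other direction were those of MT-RNR1 (-3.81), MT-RNR2 (-2.89), CEMIP (-2.35) and AQP1 (-2.25). The doses of the extracts differ (290 and 58 against 500 and 100 µg/mL), and Scutellariae Radix lies in another set of sample codes. Whether dose or set has a part in these differences was not tested.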

How the results depend on the processing

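Most values of the named genes kept their direction and side of the threshold. For the 216 named genes, 2802 of 2808 values under the alternatives did. Another 3 were no longer called (RPS4X without high replicate 1 and without medium replicate 3, TRIM31 without high replicate 3). A further 3 became called (all RAC1), and none changed sign. Most of these genes were named for large changes or small p-values in the same data, which favoured this outcome. It says little about genes near the threshold. The 268 genes that start at the top dose became 1170 with a least change of 1.5-fold and 100 with a bound of 0.3 on the first step. The 8 reversals became 17 without the filter on low counts, 14 with only the 9 Coptidis Rhizoma libraries and 5 where both steps had to reach 0.3. The difference from the step of Zizyphi Fructus gave 3958 genes with only the libraries of the doses compared, against 6135. Leaving out 1 Coptidis Rhizoma library at a time gave 6920 to 7131 genes between high and medium and 2420 to 3159 between the steps. It gave 237 to 281 starts and 4 to 10 reversals. The differences from Scutellariae Radix and Zizyphi Fructus then held 5043 to 5211 and 5436 to 6029 genes. No Scutellariae Radix library was left out, and of Zizyphi Fructus only high replicate 3.

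Between high and medium, deviations of libraries with equal replicate numbers had correlations of -0.0168, -0.0506 and -0.0109. Those with unequal numbers ran from -0.0535 to 0.074. Between medium and low, equal numbers gave 0.0754, 0.0478 and 0.0736, all positive. Unequal numbers gave -0.0549 to -0.0197 there, all negative. Whether the libraries were paired by number was not tested. With the replicate number as a block, 7823 genes were called between high and medium, 3551 between the steps, 264 started, 17 reversed, and 5739 and 6227 differed from Scutellariae Radix and Zizyphi Fructus. With the block and only the 9 Coptidis Rhizoma libraries these were 8432, 4139, 278 and 14 for the first 4. The median of the NADPH oxidase list changed sign with only those 9 libraries (0.03, against -0.14). Depth limits genes of few counts such as EGR2.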
